A study of Rattus norvegicus with 25 samples.

Results

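Faecal bacteria of rats given linseed oil with aleurone were compared with those of rats given a control oil with aleurone. The comparison uses the 13 samples labelled with the red dye Cy5, 6 of the control-oil group (A+PO) and 7 of the linseed group (A+LO), out of 25 samples in all. They were chosen by their labelled diet and dye, and no measured value entered the choice. All rats were Wistar rats fed for 12 weeks. A+PO rats received an iso-energetic control oil plus aleurone and A+LO rats received linseed oil plus aleurone, so both groups had eaten aleurone, and only the oil differs by label. The other groups, PO and LO, had the same oils without aleurone and were hybridised in the green dye Cy3 on the same arrays. The labels do not say whether each sample came from a different rat, so the p-values measure the spread between samples.

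Aleurone is the outermost cell layer of the cereal endosperm and reaches the flour mill as part of the bran. Its cell walls are rich in arabinoxylan, a fibre that gut bacteria ferment to short-chain fatty acids. Linseed oil is a plant source of alpha-linolenic acid, an omega-3 fatty acid. Bacteria in such a mixture are told apart by the gene for 16S ribosomal RNA, which all bacteria carry and whose stretches differ from one lineage to the next. The HuGChip is a microarray of short probes against this gene. 16S genes were amplified over 35 PCR cycles from 10 ng of faecal DNA, and 250 ng of labelled product of every sample was hybridised. Equal amounts of product went onto each array, so the signal describes proportions: a smaller number of one kind of bacteria and a larger number of all others cannot be told apart.

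The array carries 4441 probes of 25 bases. Each probe name starts with b and a number shared by a group of probes, and these 66 groups are called probe sets here; a second number divides them into 329 name subgroups, such as b6955_4. The names are not paired with bacteria in the sources used here, so sets are given by name only. A probe's value is its percentile rank, from 0 for the dimmest to 100 for the brightest probe of its own sample. Ranks were used because the 6 A+PO samples lie on one slide and the 7 A+LO samples on another, scanned separately. Oil and slide cannot be told apart in anything below. The numbers in the labels and in the data columns differ for 4 A+LO samples, and each of these is named by the LO sample on its array, such as "A+LO beside LO 4".

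The A+LO samples were dimmer. The number of probes detected, meaning clearly above background in more than 0.5 of their spots, was 814 to 1534 with a median of 1087 in A+PO and 576 to 930 with a median of 905 in A+LO. The median raw intensity was 73.0 to 240.4 in A+PO and 59.1 to 69.3 in A+LO. The summed corrected signal of a sample was 93.2 to 225.9 in A+PO and 32.4 to 132.2 in A+LO, in units of 1000000. No probe spot was saturated. Samples at both ends stood apart: A+PO 1 had 1534 detected probes and 48.2% of its spots marked as outliers, against 13.2% to 26.5% elsewhere, and A+LO beside LO 4 had 576 detected probes. The part of this brightness gap in the results below was not tested, and differences that leaving out 1 of these samples turns or moves by over 1.5 times are given with and without it.

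The order of probes was broadly shared by both diets. Spearman's rho over all 4441 probes between any pair of samples was 0.307 to 0.723. Pairs within A+PO had a mean of 0.616 (15 pairs), pairs within A+LO 0.496 (21 pairs) and pairs across the diets 0.528 (42 pairs). The mean across diets was thus above the mean within A+LO and below that within A+PO. A+LO beside LO 4 was least like any other, with 0.307 to 0.414 against the other 12. Without it the mean was 0.550 within A+LO and 0.551 across diets, and no A+LO pair fell below 0.415.

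**Figure D1:**
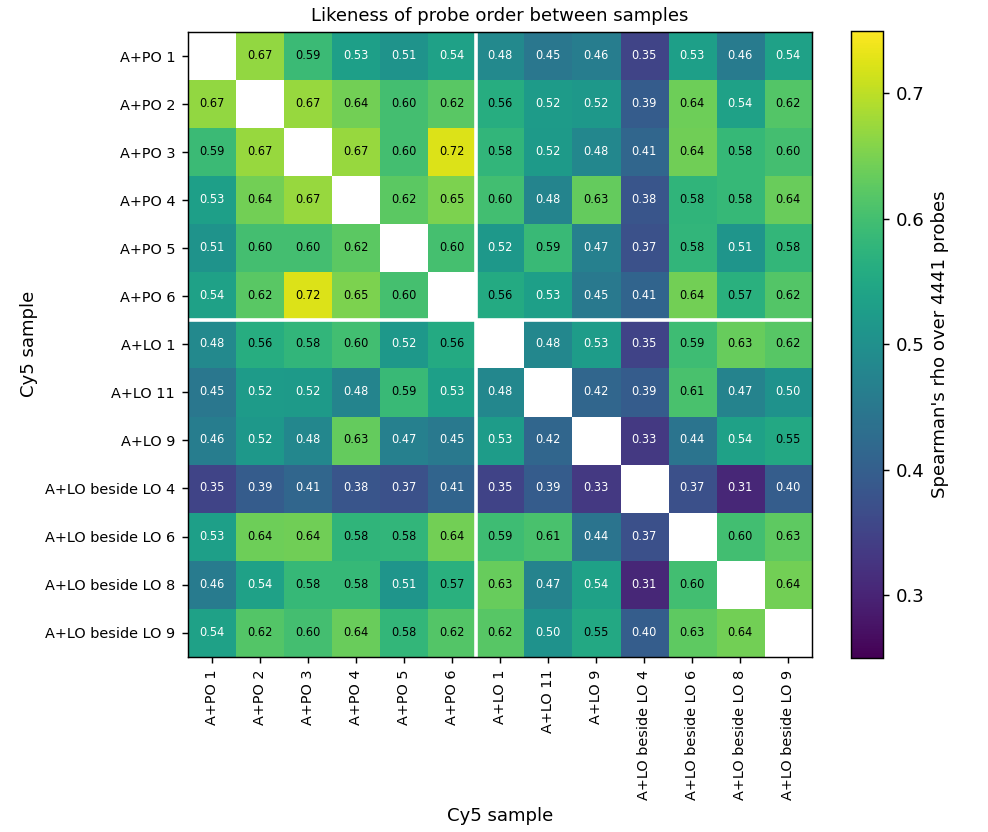
Spearman's rho of the probe order over 4441 probes for each pair of the 13 Cy5 samples, with white lines dividing A+PO from A+LO. The row of A+LO beside LO 4 holds the lowest values, 0.307 to 0.414, and the A+PO block runs up to 0.723.

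Diet group accounted for 12.7% of the variation in probe order, measured as 1 minus rho between samples, with a pseudo-F of 1.60 (exact permutation test over 1716 assignments, p = 0.0239). This is 1 of 4 sample-level tests, and adjusted over them by Benjamini-Hochberg its exact permutation p was 0.0637. Without A+LO beside LO 4 the share was larger, with a pseudo-F of 1.88 (exact p = 0.0152). Leaving out A+PO 1, A+PO 2, A+PO 3, A+PO 6 or A+LO 1 took the exact p above 0.05, the highest being 0.0909 without A+PO 3. Over the 909 probes that at least 6 of the 13 samples detected, the pseudo-F was 1.76 and did not pass the unadjusted threshold. With the deposited processed signal the pseudo-F was 3.03. The same measure over all 4441 probes between LO and PO, in the other dye on the same slides, gave a pseudo-F of 1.77 and 15.0% of the variation (exact permutation p = 0.0346).

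The spread among samples of a group was compared next. The mean distance between samples was 0.121 larger in A+LO than in A+PO, which did not pass (exact permutation p = 0.0851), and with the deposited processed signal the sign turned (-0.0673). Without A+LO beside LO 4 the gap was 0.0663 (exact permutation p = 0.175). Without A+PO 1, A+LO beside LO 6 or A+LO beside LO 9 it passed, the lowest exact permutation p being 0.0354 without A+PO 1.

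Fewer probes carried the signal in A+LO. The number of brightest probes that together held 50% of the summed signal was 86 to 172 with a median of 133 in A+PO, and 21 to 124 with a median of 92 in A+LO. A+LO beside LO 6, LO 8 and LO 9 needed 121, 124 and 122 probes, within the A+PO range. A+LO 11 needed 92, also within it. A+LO 1, A+LO 9 and A+LO beside LO 4 needed 48, 59 and 21, all below every A+PO sample. The mean difference was -47.0 probes (exact permutation p = 0.0478; 0.0637 adjusted over the 4 tests), and -36.5 without A+LO beside LO 4 (exact permutation p = 0.0866). It stayed past the unadjusted threshold only when the sample left out was A+PO 5 or A+LO beside LO 6, LO 8 or LO 9. In A+LO beside LO 4 the 10 brightest probes held 25.3% of the signal, against 3.23% to 6.21% in A+PO.

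**Figure D2:**
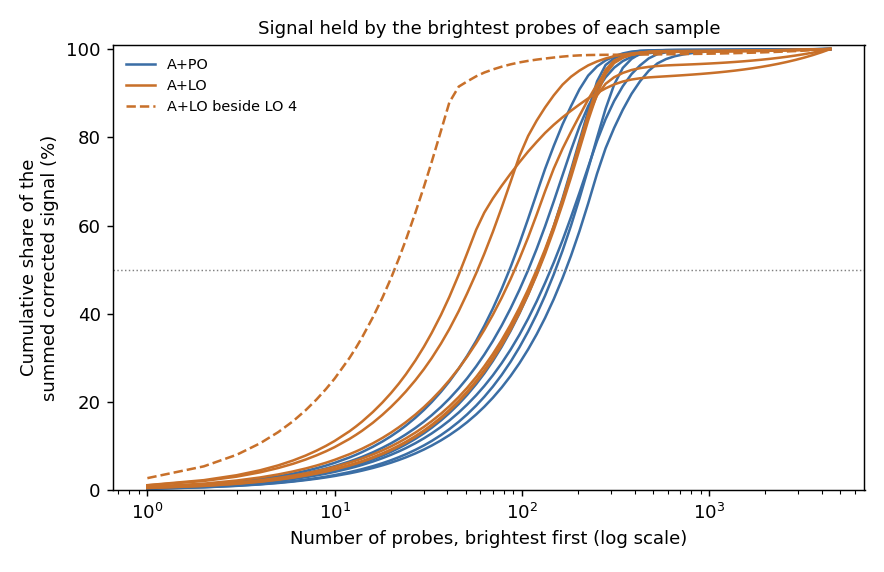
Cumulative share of the summed corrected signal (vertical axis, %) against the number of probes counted from the brightest (horizontal log axis), 1 line per sample; the dashed line is A+LO beside LO 4 and the dotted line marks 50%. A+LO beside LO 4 reaches 50% at 21 probes, A+LO 1 at 48 and A+LO 9 at 59, and the A+PO samples between 86 and 172.

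Detection was lower across nearly all sets. A+PO samples had 1103.5 ± 268 detected probes (SD, n = 6), A+LO samples 836 ± 127 (SD, n = 7), and the difference was -268 (exact permutation p = 0.0326; 0.0637 adjusted over the 4 tests). Without A+PO 1 it was -182 (exact permutation p = 0.0833), and leaving out A+PO 2, A+PO 3, A+LO 9, A+LO 11, A+LO beside LO 4 or A+LO beside LO 6 also took it above 0.05. With detection set at 3 background SD the difference was -499.5. Probes detected in all 6 A+PO samples numbered 645, in all 7 A+LO samples 444 and in all 13 samples 422. No probe was detected in all of one group and none of the other. There were 9 probes detected in at least 5 A+PO and at most 1 A+LO samples, and 0 in at least 6 A+LO and at most 1 A+PO samples. The sharpest of the 9 were b6952_5_11, b6953_3_2 and b7008_2_20, each seen in 5 A+PO and 0 A+LO samples; these were singled out after their values were seen.

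Sets b6959 and b6955 together held 49.5% to 63.5% of the summed signal of a sample. Set b6959, with 324 probes, held 32.0% to 37.7% of the summed signal in A+PO (median 33.7%) and 18.7% to 39.7% in A+LO (median 32.2%). Set b6955, with 165 probes, held 16.8% to 26.8% in A+PO (median 22.9%) and 23.7% to 41.2% in A+LO (median 26.4%). The third, b6983, held 2.74% to 10.1% in A+PO and 2.28% to 5.40% in A+LO, a difference of -0.29 on the log2 scale that was -0.019 without A+PO 1.

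In all 7 A+LO samples the share of b6955 exceeded the mean of A+PO. In 3 A+LO samples it exceeded every A+PO sample. The difference was 0.35 on the log2 scale (SE 0.14, a 1.28-fold share) and did not pass in limma after Benjamini-Hochberg adjustment (adjusted p = 0.120); without A+LO beside LO 4 it was 0.26. The share of b6959 was lower by 0.25 on the log2 scale in A+LO (-0.25, SE 0.15, adjusted p = 0.283, limma), and by 0.14 without A+LO beside LO 4 (-0.14). In 3 A+LO samples, A+LO 1, A+LO 9 and A+LO beside LO 4, it lay below all A+PO samples at 23.1%, 23.7% and 18.7%. In the other 4 A+LO samples it was 32.2% to 39.7%.

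The subgroups of these sets did not move as one. The 152 probes of b6959_3 held 16.9% to 23.6% of the signal in A+PO. They held 16.9% to 25.6% in 4 A+LO samples, and 7.75%, 7.94% and 4.74% in A+LO 1, A+LO 9 and A+LO beside LO 4. The 43 probes of b6959_4 stayed near one level, 9.70% to 14.6% in A+PO and 12.3% to 15.1% in A+LO, with those 3 samples at 14.3%, 15.1% and 13.9%. In these 3 samples the share of b6959_3 lay below all A+PO samples and that of b6959_4 did not. The 15.1% of b6959_4 in A+LO 9 was the highest of all Cy5 samples.

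Within b6955 the same 3 samples had the highest shares of the smallest subgroup. In these samples the fewest probes held 50% of the signal. The brightest probe alone held 1.15%, 1.11% and 2.75% in A+LO 1, A+LO 9 and A+LO beside LO 4. The mean rank of b6955_4 was 97.0 to 99.7 in A+PO and 98.9 to 99.9 in A+LO. How far this concentration of signal enters the subgroup shares was not tested. The 5 probes of b6955_4 held 1.29% to 2.99% in A+PO. They held 5.54%, 4.95% and 7.81% in A+LO 1, A+LO 9 and A+LO beside LO 4, and 2.25% to 3.22% in the other A+LO samples. The 39 probes of b6955_3 held 4.56% to 8.11% in A+PO and 14.8%, 11.1% and 12.1% in these 3 samples. The 45 probes of b6955_1 differed among them: A+LO 1 had 4.22%, the lowest of all 13, and A+LO beside LO 4 had 21.2%, the highest. The 5 probes of b6955_4 are nearly one sequence: each of the other 4 differs from b6955_4_1 by 1 base, so their signals are not independent of each other.

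**Figure D3:**
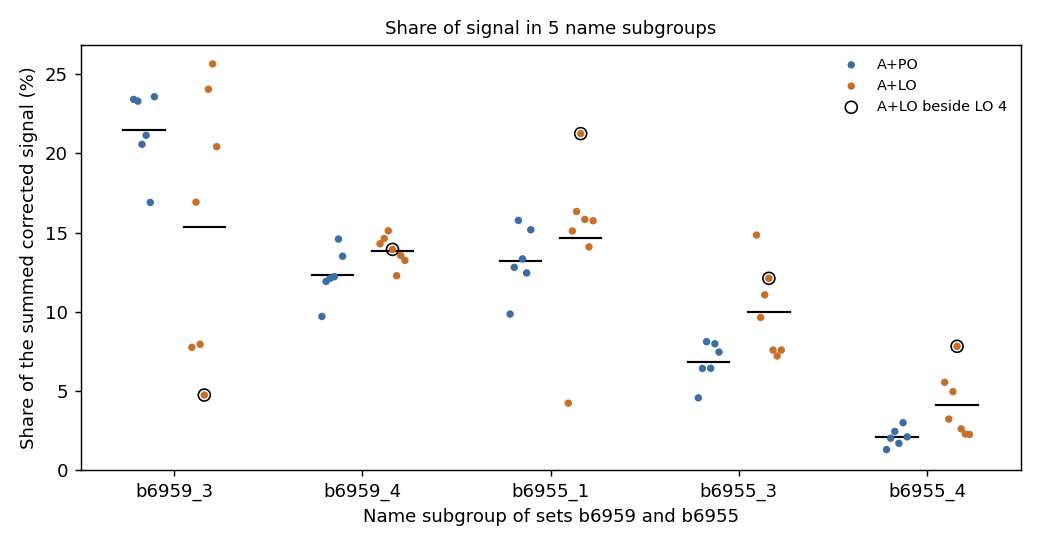
Share of the summed corrected signal (vertical axis, %) held by 5 name subgroups of sets b6959 and b6955 in each sample; points are samples, black bars group means, and the ring marks A+LO beside LO 4. In b6959_3, 3 A+LO points lie at 4.74% to 7.94%, below all A+PO points, and in b6955_4 the top 3 A+LO points lie at 4.95% to 7.81%.

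A probe of b6955 was most often the brightest. In A+LO it was b6955_4_1 in A+LO 1 and A+LO beside LO 6, b6955_4_5 in A+LO 9 and A+LO beside LO 4, and b6955_3_7 in A+LO 11. The brightest was b6959_3_66 in A+LO beside LO 8 and b7008_2_12 in A+LO beside LO 9. In A+PO, b6955_4_5 led A+PO 2 and A+PO 5, and b6985_2_4, b7009_4_1, b6959_4_41 and b6947_5_5 led 1 sample each. The brightest probe held 0.338% to 0.652% of the signal in A+PO and 0.492% to 2.75% in A+LO. Probe b6955_4_5 had a rank of 97.3 to 99.99 in A+PO and 99.6 to 99.99 in A+LO.

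Mean ranks of the sets were tested next, over the 909 probes that at least 6 of the 13 samples detected and the 43 sets with at least 3 of them. In limma with Benjamini-Hochberg adjusted p-values, 0 of 43 sets passed (0%); 1 had an unadjusted p under 0.05, and the smallest adjusted p was 0.523. Without A+LO beside LO 4, 0 of 42 sets passed and 1 had an unadjusted p under 0.05. Without A+PO 1, 0 of 41 passed and 0 had one. The median set ranked 1.81 lower in A+LO, and 13 of the 43 ranked higher. The filter of 6 samples could be met by 1 group alone, and more probes were detected in A+PO. Probes detected in all 6 A+PO but not all 7 A+LO samples numbered 223, and 22 the other way. How far the filter enters the direction of the rank differences was not tested.

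The 3 sets with the highest mean rank were b6955, b6971 and b6959. Set b6955 ranked 92.4 to 94.5 in A+PO (median 94.0) and 85.2 to 94.6 in A+LO (median 93.8). Its place among the 43 sets was never lower than 7. Set b6971, of which only 3 of 16 probes were kept, ranked 90.1 to 92.8 in A+PO and 89.0 to 93.3 in A+LO. Set b6959 ranked 91.8 to 93.5 in A+PO (median 92.9) and 80.9 to 93.4 in A+LO (median 91.8). Its place ran from 2 to 7 in A+PO and from 2 to 18 in A+LO.

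Of the 11 sets followed by name, 0 passed, 2 ranked higher and 9 lower in A+LO, and their median difference was -2.60 beside -1.81 for all 43. The same filter applies to these counts. Groups overlapped in all 11. Set b6967 ranked 91.7 to 95.3 in A+PO (median 92.6) and 81.2 to 94.4 in A+LO (median 90.02). In 6 of 7 A+LO samples it was under the mean of A+PO, with a difference of -3.71 (SE 1.79, limma adjusted p = 0.523). It was -2.14 without A+PO 6, -2.40 without A+LO 1 and -2.39 without A+LO beside LO 4. Set b6983 ranked 77.9 to 93.6 in A+PO and 55.3 to 88.4 in A+LO. Its 2 lowest samples were A+LO 11 at 63.8 and A+LO beside LO 4 at 55.3. Of its 48 kept probes 40 ranked lower on average in A+LO and 8 higher, against 399 higher of all 909. These probes share samples and are not replicates. The difference of b6983 was -8.94 (SE 5.33, limma adjusted p = 0.523), and -5.00 without A+LO beside LO 4.

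The sets that ranked higher were b6995 and b7007. Set b6995 ranked 82.0 to 88.4 in A+PO and 83.8 to 91.1 in A+LO, a difference of 1.58 (SE 1.78, limma adjusted p = 0.757). It was 0.83 without A+PO 1 and 0.97 without A+LO 1. Of its 102 kept probes, 82 ranked higher in A+LO, against 399 of all 909. These probes share sequence and samples and are not replicates. Set b7007 ranked 83.5 to 92.8 in A+PO and 83.6 to 94.9 in A+LO, a difference of 1.41 (SE 1.92, limma adjusted p = 0.757). It was 0.21 without A+PO 1, 0.74 without A+LO 11, 0.92 without A+LO beside LO 8 and 2.63 without A+LO beside LO 4. It was the top set of all 43 in A+LO 11 and in A+LO beside LO 8. Its share of the signal ran from 0.961% to 6.77% in A+PO and from 1.02% to 7.70% in A+LO.

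The other 7 named sets had lower means in A+LO. Set b6947 ranked 81.9 to 93.8 in A+PO and 70.2 to 89.6 in A+LO (difference -4.98, SE 3.26), and the difference was -2.95 without A+LO beside LO 4. Set b6992 ranked 82.8 to 94.4 and 73.8 to 89.4 (difference -4.93, SE 2.76), with its highest value in A+PO 1, where it was first of the 43 sets. The difference of b6998 was -1.81 (SE 2.51), that of b7008 -2.60 (SE 2.29; -1.32 without A+LO 11) and that of b6965 -0.20 (SE 3.15). For b6998 the sign turned without A+LO beside LO 4 (0.41), and for b6965 it turned too (1.77), as it did without A+PO 4 (0.35) or A+LO 11 (0.29). Without A+PO 1 the difference of b6965 was -1.27. The difference of b6959 was -3.00 (SE 1.83), and -1.54 without that sample. For b6955 the difference was -1.46 (SE 1.39), and -0.29 without it.

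**Figure D4:**
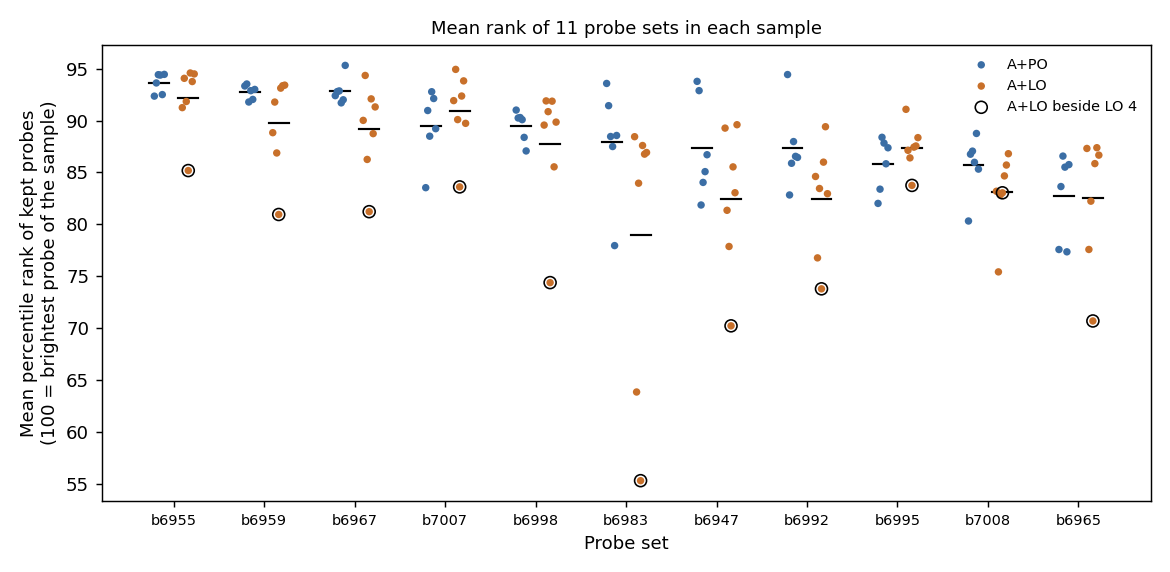
Mean percentile rank of the kept probes (vertical axis, 100 is the brightest probe of a sample) for the 11 named sets; points are samples, black bars group means, and the ring marks A+LO beside LO 4. The groups overlap in all 11 sets, and the ringed sample is the lowest of the 13 in b6955 at 85.2, b6983 at 55.3 and b6998 at 74.4.

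Of all 43 sets, the smallest p in each direction belonged to b6962, with few kept probes, and b6968, with low ranks. Next among the lower sets was b6967, given above, with 17 of its 21 probes kept. Set b6962, with 3 kept probes, ranked 86.5 to 92.5 in A+PO and 52.8 to 89.8 in A+LO, under the mean of A+PO in 7 of 7 samples. Its difference was -10.8 (SE 4.80, limma adjusted p = 0.523), and -6.40 without A+LO beside LO 4. Set b6968 ranked 65.1 to 81.1 in A+PO and 73.8 to 82.4 in A+LO (difference 5.69, SE 3.31, adjusted p = 0.523, limma), and the difference ran from 4.63 without A+PO 6 to 8.91 without A+PO 4. Set b6996 ranked 68.8 to 83.2 and 75.2 to 86.5 (difference 3.06, SE 3.06, adjusted p = 0.725, limma), and the difference was 1.09 without A+PO 1. None of these passed.

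By share of signal, 0 of 66 sets passed (0%), with 17 at an unadjusted p under 0.05 in limma, 14 of them higher in A+LO, and a smallest adjusted p of 0.115. Apart from b6955, the other 13 higher sets held at most 0.0422% of the signal on average in A+LO, where on average at most 7.14% of a set's probes were detected. The lead pair, b6969 and b6976, differed by 2.08 (SE 0.63) and 1.95 (SE 0.62) on the log2 scale, both with an adjusted p of 0.115 in limma. The groups did not overlap in either, nor in b6993, b6961, b6944 and b6975. In these last sets on average at most 3.81% of the probes were detected in either group. Yet none of the 14 probes of b6969 was detected in any of the 13 samples. Both signs turned with the deposited background-subtracted signal, to -0.21 and -0.82. The 2430 probes detected in no sample had a median corrected value of 1489 in A+LO 1 and 1262 in A+LO beside LO 9, and of 80.02 to 145.2 in the other 11 samples, while their raw median in those 2 samples was 58.7 and 66.3. Together these undetected probes held 0.114% to 0.223% of the signal in A+PO and 0.283% to 3.87% in A+LO. The groups thus did not overlap in them either. How far this enters the shares of the dim sets was not tested.

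Of the sets with a lower share, the lead pair were b6962 and b7009. Set b6962 held 0.290% to 0.556% of the signal in A+PO and 0.00153% to 0.317% in A+LO, and 6 of 7 A+LO samples lay below all A+PO samples. Its difference was -3.00 on the log2 scale (SE 1.096, limma adjusted p = 0.115). Set b7009, of only 5 probes, held 0.326% to 0.623% in A+PO. In A+LO it held 0.320% to 0.430% in 4 samples, and 0.00820%, 0.000974% and 0.00217% in A+LO 1, A+LO 9 and A+LO beside LO 4 (difference -3.34, SE 1.29, limma adjusted p = 0.115). These are the same 3 samples in which b6959_3 was low.

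In the share of each set's probes that were detected, 0 of 63 sets passed in limma (0%), with a smallest adjusted p of 0.133. The direction was one-sided: 61 sets had a lower mean in A+LO and 2 a higher one, and all 21 sets with an unadjusted p under 0.05 were lower. Set b6992, with 25 probes, had 40% to 84% detected in A+PO and 20% to 44% in A+LO, and 6 of 7 A+LO samples lay below all A+PO samples (difference -21.9 percentage points, SE 6.21, limma adjusted p = 0.133). Set b7009 had 40% to 80% and 20% to 40% (difference -19.0, SE 6.67, limma adjusted p = 0.133). The higher sets were b6974, with 4.17% on average in A+PO against 5.84% in A+LO, and b6990, with 10.9% against 11.2%. The b6990 difference was 0.31 percentage points, and 1.45 without A+LO beside LO 4. It turned to -0.12 without A+PO 1 and also turned without A+PO 3, A+PO 4, A+PO 6, A+LO 1 or A+LO 11, and the difference of b6974 ran from 0.76 without A+LO 11 to 3.12 without A+PO 3. Without A+PO 5, the A+PO sample with the fewest detected probes, 12 sets passed, all lower in A+LO.

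Of the 909 probes tested by rank, 0 passed in limma (0%), with a smallest adjusted p of 0.697. At an unadjusted p under 0.05 there were 49, of which 39 ranked higher in A+LO. The median probe ranked 0.47 lower, under the same filter as the sets.

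Of the 909 kept probes, b6965_3_2 was the only one whose groups did not overlap. The number expected to do so by chance was not worked out. Probe b6965_3_2 held from 1.22e-04% of the signal in A+PO 5 to 0.00835% in A+LO 1. Its rank was 77.0, 81.6, 86.8, 84.0, 85.6 and 85.2 in A+PO 1 to 6. In A+LO it was 91.3 in A+LO 1, 90.7 in A+LO 9, 89.8 in A+LO 11, and 94.4, 87.2, 88.7 and 89.8 beside LO 4, 6, 8 and 9. It was detected in all 13 samples. The difference was 6.91 (SE 1.90, limma adjusted p = 0.697), and 5.63 without A+PO 1. Its GC content, the share of its bases that are G or C, was 84.0%. The probe also ranked higher with linseed oil in the other dye, 90.2 on average in LO and 83.9 in PO. LO shared its slide with A+LO and PO with A+PO, so this is no separate test of the oil.

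Probe b6959_4_29 ranked 95.1 to 99.3 in A+PO (median 95.9) and 97.1 to 99.9 in A+LO (median 99.5), a difference of 2.79 (SE 0.77, limma adjusted p = 0.697). In A+LO, 7 of 7 samples lay above the mean of A+PO and 4 above all A+PO samples. Probe b6959_4_29 differs by 2 bases from probe b6955_1_8 of another set, which ranked 95.8 to 99.1 in A+PO and 99.0 to 99.6 in A+LO (difference 2.20, SE 0.61, limma adjusted p = 0.697). Probes this alike may bind the same amplicons, and these values are not independent.

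The probes with the smallest p that ranked lower were b6947_5_11 and b7008_2_11. Probe b6947_5_11 ranked 76.6 to 97.8 in A+PO (median 83.9) and 45.3 to 83.6 in A+LO (median 70.5). It was detected in 6 of 6 A+PO and 2 of 7 A+LO samples, so the group where it ranked high met the filter alone. Its difference was -20.3 (SE 6.94, limma adjusted p = 0.697). Probe b7008_2_11 was detected in all 13 and ranked 93.7 to 98.9 in A+PO (median 96.3) and 83.2 to 94.3 in A+LO (median 92.9). Its difference was -5.25 (SE 1.80, limma adjusted p = 0.697), with 6 of 7 A+LO samples below all A+PO samples.

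**Figure D5:**
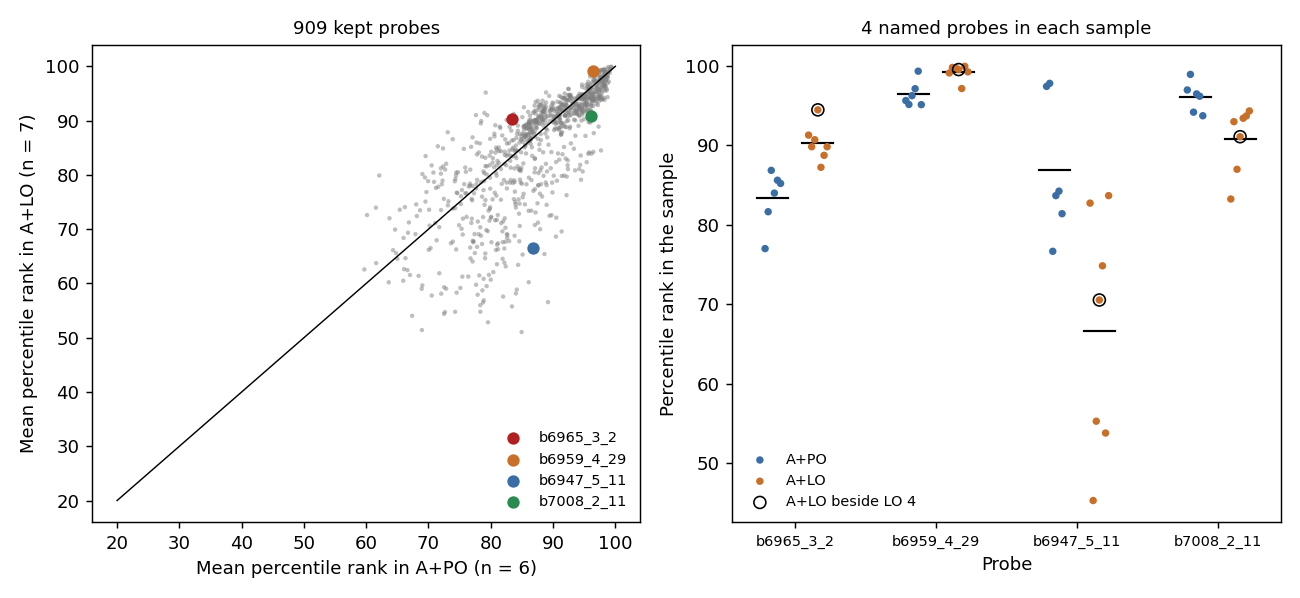
Left, mean percentile rank of each of the 909 kept probes in A+PO (horizontal axis) and A+LO (vertical axis) with the line of equal rank; right, the rank of 4 named probes in each sample, with black bars for group means and a ring for A+LO beside LO 4. In b6965_3_2 all A+LO points, from 87.2 up, lie above all A+PO points, and the other 3 probes overlap.

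The rank difference varied with base composition. Over the 909 probes, Spearman's rho of the difference with GC content was 0.186, a description across probes that share samples. Of the 350 probes above 58% GC, 54.6% ranked higher in A+LO, with a median difference of 0.36. Of the 207 probes up to 44% GC, 34.8% did, with a median of -0.99.

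Finally, the oil difference with aleurone was set against that without it, as (A+LO minus A+PO) minus (LO minus PO) over all 25 samples with the array as a random block. An additive effect of slide cancels here, and one that differs between dyes does not. No probe of 909 (0%) and no set of 43 (0%) passed in limma, with smallest adjusted p of 0.163 and 0.230. There were 44 probes and 6 sets with an unadjusted p under 0.05. Probe b6955_1_8 had the smallest p of the higher ones: its mean rank was 2.20 higher in A+LO than in A+PO and lower in LO (95.9) than in PO (97.8), an interaction of 4.15 (SE 0.95, limma adjusted p = 0.163). Probe b6947_5_6 followed with 4.46 (SE 1.07, limma adjusted p = 0.163). The lowest were b6941_2_3, with -24.0 (SE 7.15, limma adjusted p = 0.538), and b7009_3_1, with -28.6 (SE 8.93, limma adjusted p = 0.595). Each of these 2 was detected in 6 A+PO and 2 A+LO samples, so A+PO, where they ranked higher than in A+LO, met the filter alone. On log2 signal in place of ranks both signs turned, to 3.16 with a call for b6941_2_3 (limma adjusted p = 0.0440) and to 2.53 for b7009_3_1, and 55 probes passed, all higher. On that scale the median interaction of all 909 probes was 1.18, against -0.45 on ranks. Among sets, b6941 had -12.0 (SE 4.06) and b6967 -3.65 (SE 1.32), both with an adjusted p of 0.230 in limma, and the higher ones b6949 and b6942 had 3.67 (SE 3.31) and 2.01 (SE 2.13), with an adjusted p of 0.663 in limma. Without the array of LO 4 the interaction was -7.59 for b6941, -2.42 for b6967 and 0.092 for b6949. On log2 signal it was 2.68 for b6941 and 0.25 for b6967. For b6965_3_2 the interaction was 0.72 (SE 1.02, limma adjusted p = 0.855).

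The same contrast on signal shares, chosen after seeing the data, called 23 of 66 sets (34.8%), 19 of them higher with aleurone. Set b6955 was among them, with an interaction of 0.34 on the log2 scale (SE 0.10, limma adjusted p = 0.00986): its share was higher by 0.35 in A+LO than in A+PO and by 0.02 in LO than in PO. In each of the other higher sets, at most 7.94% of the probes were detected on average in A+LO, against 59.2% in b6955. How far the values of undetected probes enter those shares was tested only by a sum over kept probes. With shares taken over the 909 kept probes only, 0 of 43 sets passed in limma, the smallest adjusted p being 0.0744. Samples with aleurone carried Cy5 and those without it Cy3, so this contrast sets dye against dye as well.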

How the data were processed

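Per the labels' protocols, 16S amplicons were labelled with Cy3 or Cy5. Spots had been quantified with Agilent Feature Extraction 10.5.1.1, per the file headers, and the deposited tables hold linear intensities; the deposited flags for outlier and above-background spots (other values) were also used. Only the Cy5 channels entered the comparison (both dyes for the interaction). The background correction was normexp (offset 50) in limma 3.58.1, R 4.3.3; log2 values of the deposited intensities were averaged over the 3 spots of a probe, leaving out spots marked as outliers unless all were. Ranks were taken over 4441 probes in each sample. Limma with a variance trend tested the 13 samples; an adjusted p under 0.05 passed. Sample-level values had exact permutation tests, two-sided except for the pseudo-F, checked with vegan 2.7.1. The fits were tested on simulated data. 1 Cy3 channel with no listed sample was not used. Other background corrections, scales, filters and samples left out were tried. The number of arrays limits the precision. The members and lists were chosen with earlier results of these data known. Named items are the 11 listed sets, 2 listed probes, the brightest probes and top sets, and up to 2 items a direction with the largest difference past the test or otherwise the smallest p. Probe sequences are not printed. Figures used matplotlib 3.10.9 in Python 3.11.15.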

Additional observations from a re-analysis of the deposited data

Results flagged for a closer look

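A gap test within each group (76 groups of values checked) singled out 12 values that lay far from the rest of their group; chance gives about 1 in 20. A+LO beside LO 4 gave 4 of them: its 576 detected probes, and its mean ranks of 85.2 in set b6955, 74.4 in b6998 and 52.8 in b6962, each the lowest of the group. A+PO 1 was high in the share of b6983 (10.1%) and in the detected share of b6992 (84.0%). A+PO 6 was high in the mean rank of b6967 (95.3) and low in the rank of b6955_4_5 (97.3). A+LO 11 was low in the mean rank of b7008 (75.4), A+LO 1 in the signal share of b6955_1 (4.22%), A+LO beside LO 6 in the rank of b6959_4_29 (97.1) and A+LO beside LO 8 in that of b6955_4_5 (99.6).

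Samples with aleurone carried Cy5 and those without it Cy3, so the next contrast is one of dye as much as of aleurone. The oil difference in signal share differed between samples with and without aleurone in 23 of 66 sets. The named ones were b6948 (2.01 on the log2 scale) and b6976 (1.98), which were higher, and b6962 (-1.61) and b6987 (-1.38), which were lower. Without the array of LO 4, b6962 was -0.90 and no longer passed (limma adjusted p = 0.0986). In b6948 and b6976 the mean detected share of probes in A+LO was 3.25% and 1.30%. Whether the dim background described in the report enters these values was not tested apart from the sum over kept probes, which left 0 sets past the test.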

How the results depend on the processing

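No paired analysis was possible because the labels do not tie any A+PO sample to an A+LO sample. Only replicate number 1 is shared by columns of both groups without a conflict between labels, and a shared number is not a stated pairing. The count of 0 past the test for probe ranks, set ranks and shares held under other background corrections and scales and with any 1 sample left out. With no filter on dim probes, 1 probe (b6953_3_2, lower, seen in 5 A+PO and 0 A+LO samples) and 1 set (b6974, higher, at most 11.4% of its probes detected) passed; taking the mean over all probes of a set also gave 1. For set detection, net signal over 3 background SD gave 1 set (b7009, lower), and leaving out 1 sample gave 0 to 12. For the interaction, log2 signal in place of ranks called 55 probes, all higher, and no filter called 2. The interaction of shares called 0 sets over kept probes and 22 without the array of LO 4. The cause was not tested.

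The pseudo-F over kept probes was 1.76 (exact permutation p = 0.0781). The within-group distance was -0.0673 with the processed signal. The probes holding 50% differed by -39.8 with the processed signal, and those holding 90% by -78.0. With 1 sample left out the pseudo-F was 1.39 to 1.88, the within-group distance 0.0663 to 0.146, the probes holding 50% -55.9 to -36.5 and the detected probes -326 to -182.

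Of the signs that turned, that of b6941_2_3 on log2 signal was past the test. With the background-subtracted signal, b6965 turned to 1.01 in rank and b6969 and b6976 to -0.21 and -0.82 in share. With the processed signal, ranks turned in b6998 (1.13), b6965 (5.86), b6947 (1.15), b7008 (5.18) and b6992 (0.067), and shares in b6969 (-0.84) and b6976 (-1.44). Set b6965 was 0.76 with no background correction, 5.26 with ranks over kept probes, 0.029 with normal scores, 1.02 on log2, 2.10 over probes detected in every sample and 2.44 by the median. Set b7008 was 0.57 on log2, 0.40 with no filter or over all probes and 0.31 by the median, and b6996 was -1.69 with no filter or over all probes. Over probes detected in every sample b6998 was 0.27 and b6992 0.87. Detection of b6990 was -7.45 at 3 background SD. With 1 sample left out b6965 ran from -1.28 to 1.77, b6998 from -2.57 to 0.41 and b6990 from -0.72 to 1.61. For the interaction on log2, b6941_2_3 was 3.16 (limma adjusted p = 0.0440), b7009_3_1 2.53, set b6941 2.68 and b6967 0.25, and with no filter b6949 was -0.41.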
